A study of Mus musculus with 6 samples.

Results

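The genes described here are the molecular chaperones and co-chaperones that cells make without heat stress, in the cytosol, the endoplasmic reticulum (ER) and the mitochondria. They were chosen by symbol: HSP70 (Hspa), HSP90 (Hsp90), small HSP (Hspb), J-domain proteins (Dnaja, Dnajb, Dnajc), subunits of the cytosolic chaperonin TRiC (Cct2 to Cct8, Tcp1), prefoldin (Pfdn), the mitochondrial chaperonin (Hspd1, Hspe1), FK506-binding prolyl isomerases (Fkbp), protein disulfide isomerases (Pdia), BAG proteins (Bag) and the co-chaperones St13, Stip1, Cdc37 and Ahsa. The pattern matched 118 symbols, of which 7 heat-inducible ones were left out, so that 111 of the 23183 symbols in the tables remained. Of these 111, 97 had enough counts to be tested, among 12517 tested genes in all, and 14 did not. The untested genes were *Cct6b*, *Cct8l1*, *Dnajb13*, *Dnajb3*, *Dnajb7*, *Dnajb8*, *Dnajc12*, *Dnajc5b*, *Dnajc5g*, *Dnajc6*, *Fkbp6*, *Hspb3*, *Hspb9* and *Pdia2*, each at 1.63 CPM (counts scaled to the same library size) or less in every library.

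RNA was sequenced from 6 bulk tumours of UV2237M, a mouse fibrosarcoma line (a connective tissue tumour) with the genotype label WT. The 3 treated tumours were given gold nanoclusters (GNC) on day 1 and again on day 7, together with near-infrared (NIR) irradiation, whose light such gold particles convert to heat. The 3 untreated tumours received no treatment. The labels give neither the host strain nor its age. Whether each tumour grew in its own animal is not stated either, and the p-values measure only the spread between these 6 samples.

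Chaperones bind unfolded or partly folded proteins and keep them from aggregating until they fold. HSP70 proteins work through cycles of ATP use that J-domain proteins start and nucleotide exchange factors end, and they pass clients to HSP90, while TRiC and the mitochondrial chaperonin enclose a client in a barrel of stacked rings. Each organelle has its own set, and heat shock factor 1 (HSF1) in the cytosol and the unfolded protein response in the ER are the known regulators of many of these genes.

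The libraries held 5696774 to 7915087 counts in treated tumours and 4680295 to 8019294 in untreated tumours. Untreated 2 stood apart, with a mean distance to the other libraries of 1.22 on the log2 CPM scale, against 0.611 to 0.729 for each of the others. Most values are therefore given with all 6 libraries and again with the 5 other than untreated 2. The mesenchymal list fitted the label fibrosarcoma: its 10 genes summed to 27527 to 35166 CPM in treated tumours and 26129 to 39328 CPM in untreated tumours, although *Col1a1*, a fibrillar collagen, was at 59.4 CPM in untreated 2 and at 1975 CPM or more elsewhere. Other cell types differed between libraries. The 8 keratinocyte markers summed to 4.35 to 66.8 CPM in treated tumours, and to 1257, 606 and 5.89 CPM in untreated 1, 2 and 3, with *Lor* at 0 in all treated libraries. The 8 macrophage markers summed to 452 to 808 CPM in treated tumours and 954 to 1625 CPM in untreated tumours. The 12 skeletal muscle markers summed to 33.1, 14.0 and 496 CPM in treated 1, 2 and 3, and to 33.2 to 126 CPM in untreated tumours. The neutrophil markers, 6 of 7 of them in the tables, summed to 127, 90.7 and 131 CPM in treated tumours and 32.2, 23.9 and 103 CPM in untreated tumours, and all 5 tested ones were higher in treated tumours (median log2 fold change 0.83). The 8 smooth muscle and pericyte markers summed to 178 to 305 CPM in treated tumours and 115 to 218 CPM in untreated tumours. Of the plasma and B cell markers, *Xbp1*, which many secretory cells express, was at 77.3 CPM or more, and each of the others in the tables was under 1 CPM in every library. The part of these cell types in the chaperone values was not tested, and in bulk RNA fewer cells of a type and less RNA per cell cannot be told apart.

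None of the 97 tested chaperone genes passed edgeR's quasi-likelihood test at a Benjamini-Hochberg adjusted p of 0.05, with all 6 libraries or without untreated 2, and the share of all tested genes that passed was 0.0% in each direction in both. The smallest adjusted p of a chaperone gene was 0.592 with all libraries and 0.227 without untreated 2. At an unadjusted p under 0.05 with all libraries, 8 chaperone genes were higher in treated tumours (8.25%, against 3.32% of all tested genes) and 1 was lower (1.03%, against 4.85%). The 8 were *Hspd1*, *Hspa4*, *Pfdn6*, *Hspa9*, *Stip1*, *Bag2*, *Cct6a* and *Dnajc11*, and the 1 was *Hspb2*. That count of higher genes was 1 without treated 1, 2 without treated 3, 2 without untreated 1 and 5 without untreated 3. The share of all tested genes with 1 of those libraries left out is not given here. DESeq2 with all libraries called none of the 97 at an adjusted p of 0.05, against 0.144% of all tested genes called higher and 0.312% called lower. At an unadjusted p under 0.05 it gave 9 chaperone genes higher and 3 lower, and the share of all tested genes there is not given here.

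Without untreated 2, 24 chaperone genes were higher at an unadjusted p under 0.05 (24.7%, against 9.55% of all tested genes) and 3 were lower (3.09%, against 8.85%). DESeq2 on those 5 libraries, a test added after the data were seen, called *Hspd1*, *Hspa4* and *Hspa9* higher and no chaperone gene lower, against 0.896% and 1.23% of all tested genes. In 18 of the 97 genes all treated libraries lay above all untreated ones (18.6%, against 10.6% of all tested genes), and in 6 all lay below (6.19%, against 10.2%). Set against untreated 1 and 3 alone, 41 genes lay above (42.3%, against 19.7%) and 11 lay below (11.3%, against 19.9%). The median log2 fold change, treated over untreated, was 0.08 over the 97 genes with all libraries and 0.16 without untreated 2, while the median of all tested genes was 0.00 without untreated 2. By compartment, the median was 0.22 for the mitochondrion (0.19 without untreated 2, and 0.065 with all libraries once trends with GC content and length were removed), 0.13 for the cytosol and nucleus (0.26) and -0.08 for the ER (0.00).

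**Figure D1:**
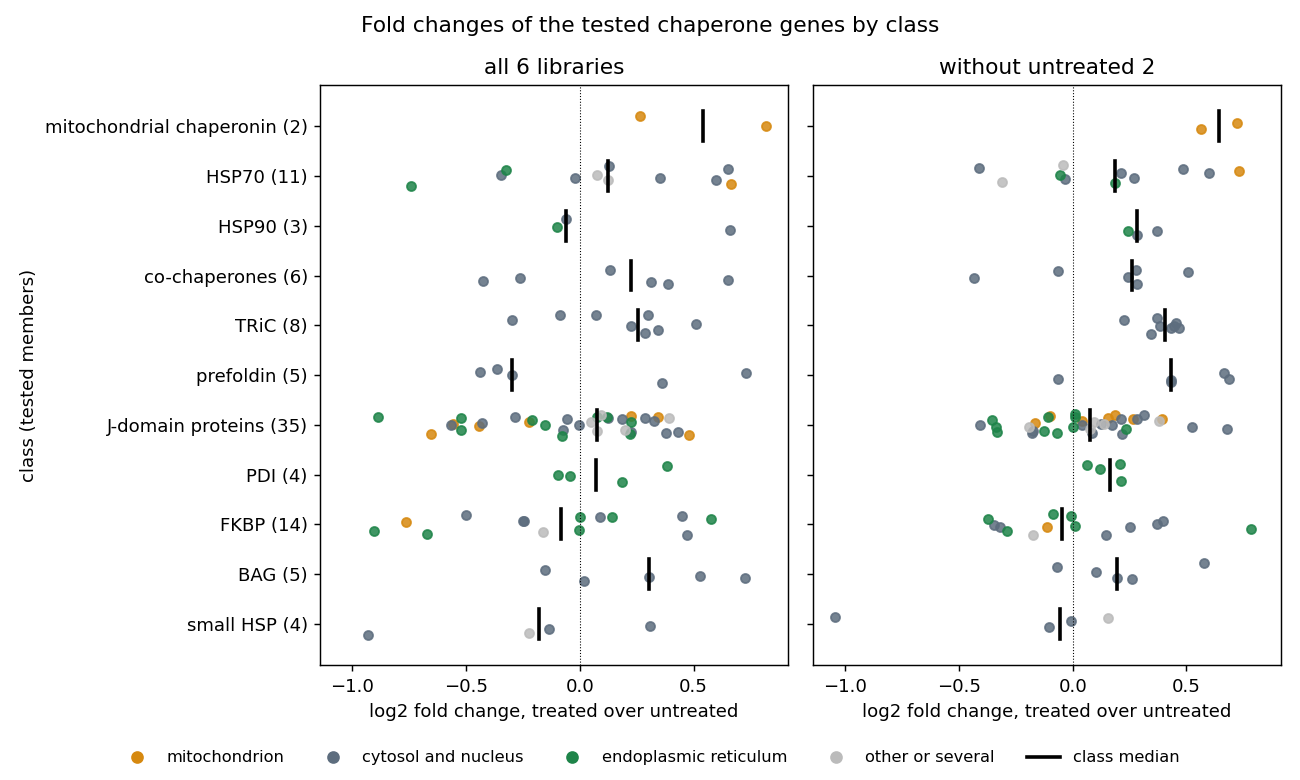
Log2 fold change, treated over untreated, of each tested chaperone gene by class, with all 6 libraries (left) and without untreated 2 (right); points are coloured by compartment and black bars are class medians. Without untreated 2 all 8 TRiC subunits lie right of 0, and the prefoldin median is 0.43 in place of -0.30.

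The highest log2 fold change of the 97 genes with all libraries was that of *Hspd1*. The gene, which codes for HSP60, the barrel of the mitochondrial chaperonin, had 628, 494 and 721 CPM in treated tumours, against 332, 302 and 409 CPM in untreated tumours. Treated and untreated libraries did not overlap, and untreated 2 was the lowest. Its log2 fold change was 0.82 ± 0.23 (SE, with unadjusted p = 0.00988 and adjusted p = 0.592, edgeR). Without untreated 2 it was 0.72 ± 0.18, with an adjusted p of 0.227 in edgeR and 0.0109 in DESeq2. *Hspe1*, which codes for HSP10, the lid of that barrel, had 140, 87.9 and 138 CPM in treated tumours, against 79.9, 141 and 84.0 CPM in untreated tumours. Here the groups overlapped, with untreated 2 as high as treated 1, and treated 2 was close to untreated 3. Over all 6 libraries its log2 fold change was 0.27 ± 0.31, and over the 5 others than untreated 2 it was 0.57 ± 0.20 (unadjusted p = 0.0225, edgeR). Each gene has several processed copies in the genome (5 pseudogenes are named for *Hspd1* and 6 for *Hspe1*), so reads may have been lost or split between copies.

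*Hspd1* (chr1:55077835-55088243, minus strand, mm10) and *Hspe1* (chr1:55088132-55091307, plus strand) lie head to head. Their GENCODE gene models overlap on opposite strands, and since the strand setting of the counting is not given, reads there cannot be told apart. The RefSeq start used for *Hspd1* and that of *Hspe1* are 216 bases apart. Part of the stretch between those starts is shown because it holds the heat shock element sought here, the site that HSF1 is known to bind. It is chr1:55088009-55088126 on the plus strand, from RefSeq's mm10 sequence, with the element in capitals.
Hspd1 and Hspe1: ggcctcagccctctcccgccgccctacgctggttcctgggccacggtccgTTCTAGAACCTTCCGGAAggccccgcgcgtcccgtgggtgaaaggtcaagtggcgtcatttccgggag
The capitals hold 2 overlapping matches, 1 on each strand, to the motif GAA, TTC and GAA with 2 free bases between neighbours, which was sought on both strands in the 300 bases around each start site. The capitals end 72 bases before the start of *Hspe1*. Of the 27025 symbols with a RefSeq promoter, 0.662% held a match. Of the 92 chaperone genes with a promoter 3 did: *Hspd1*, *Hspe1* and the cytosolic J-domain gene *Dnajb6*. The stretch shown is shared by *Hspd1* and *Hspe1* and counts for both. A match describes these letters and is not a measured binding site.

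*Hspa9*, the mitochondrial HSP70 that pulls proteins through the import channel, had 845, 608 and 896 CPM in treated tumours, against 420, 545 and 518 CPM in untreated tumours. All treated libraries were above all untreated ones, and treated 2 was the nearest to them. The log2 fold change was 0.66 ± 0.24 (unadjusted p = 0.0255 and adjusted p = 0.592, edgeR). Without untreated 2 it was 0.73 ± 0.19, with an adjusted p of 0.227 in edgeR and 0.0127 in DESeq2. *Dnajc11*, a J-domain protein of the mitochondrial membrane complex that shapes cristae, had 80.3, 63.1 and 77.7 CPM in treated tumours, against 52.2, 46.9 and 59.5 CPM in untreated tumours. Here too the groups stood apart, but its log2 fold change of 0.48 ± 0.20 (0.39 ± 0.14 without untreated 2) came to 0.06 once trends with GC content and length were removed. Of the 7 mitochondrial J-domain genes, 3 were higher and 4 lower, with a median of -0.22 (0.16 without untreated 2). *Fkbp8*, an isomerase of the outer mitochondrial membrane, was picked with its values in view. It had 154, 134 and 136 CPM in treated tumours, and 148, 418 and 156 CPM in untreated tumours. Only untreated 2 stood away from the others for this gene, and the log2 fold change of -0.76 was -0.11 without it.

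Of 12 other genes for mitochondrial folding and import, such as the HSP90 *Trap1* and the protease *Lonp1*, 5 were higher and 7 lower with all libraries, with a median of -0.05, and 11 of 12 were higher without untreated 2, with a median of 0.24. In edgeR's test none had an unadjusted p under 0.05 with all libraries, against 3.32% of all tested genes higher and 4.85% lower. Without untreated 2, 2 of the 12 did, both higher, against 9.55% of all tested genes.

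**Figure D2:**
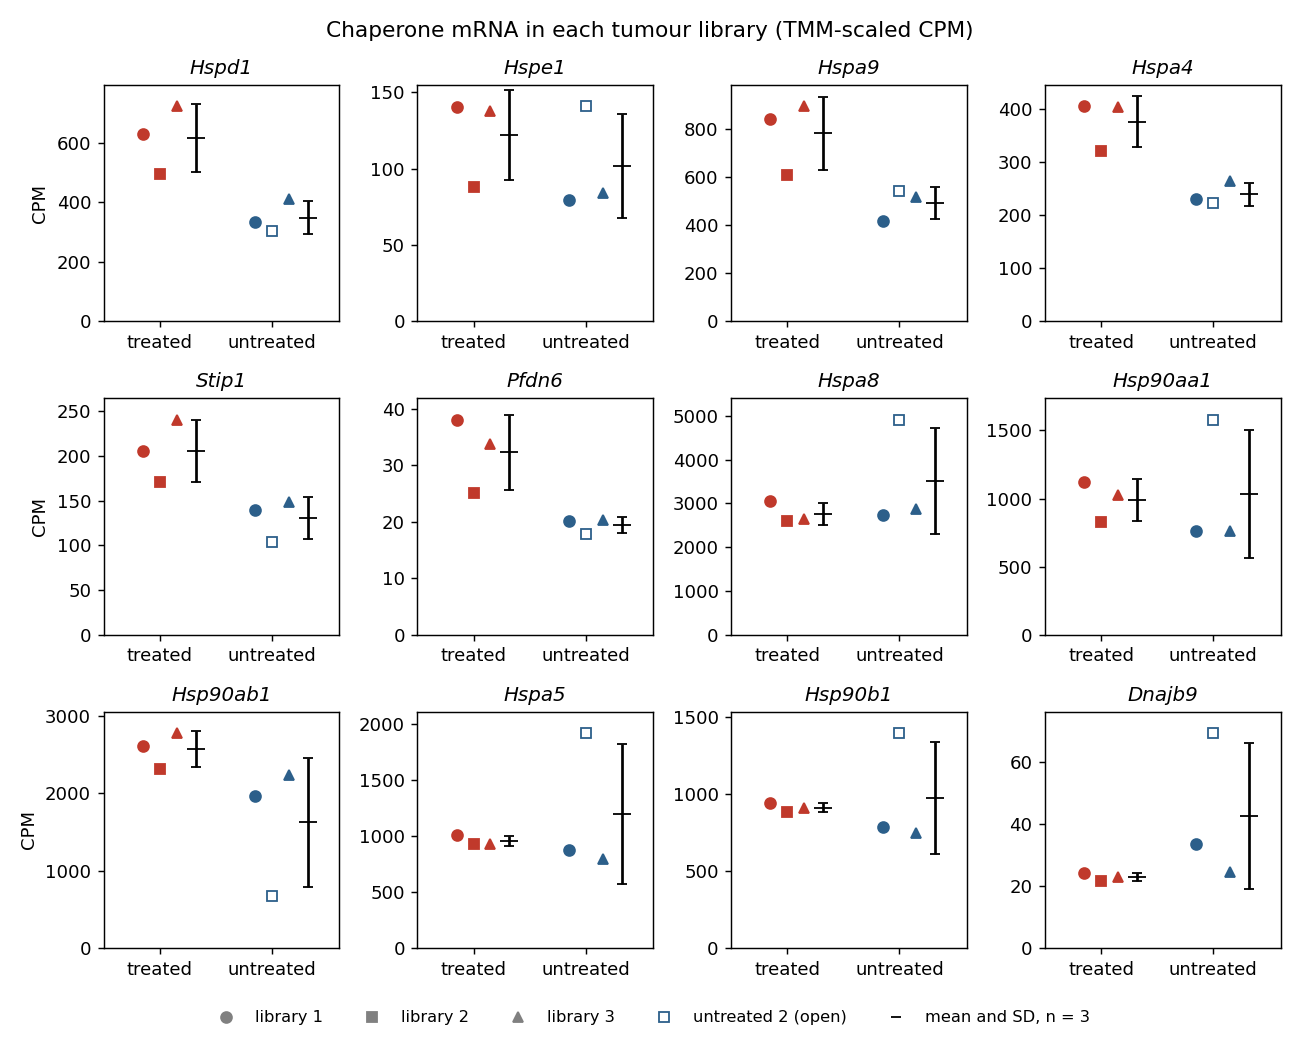
CPM of 12 chaperone genes in each library, treated (red) left of untreated (blue), with the mean and SD of 3 libraries in black and untreated 2 as an open square. *Hspd1*, *Hspa9*, *Hspa4*, *Stip1*, *Pfdn6* and *Hsp90ab1* are higher in every treated library than in any untreated one, and *Dnajb9* is lower. *Hspe1*, *Hspa8*, *Hsp90aa1*, *Hspa5*, *Hsp90b1* and *Dnajb9* are highest in untreated 2, and *Hsp90ab1* is lowest there.

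Among the HSP70 genes of the cytosol, *Hspa4*, an HSP110-type protein that frees ADP from HSP70, had 404, 320 and 402 CPM in treated tumours, against 230, 222 and 264 CPM in untreated tumours. No treated library overlapped an untreated one, and untreated 2 lay close to the other untreated libraries. The log2 fold change was 0.65 ± 0.20 (unadjusted p = 0.0138 and adjusted p = 0.592, edgeR). Without untreated 2 it was 0.60 ± 0.14, with an adjusted p of 0.227 in edgeR and 0.0120 in DESeq2. *Hspa8*, the constitutive HSP70 (HSC70), had 3048, 2589 and 2640 CPM in treated tumours, and 2738, 4909 and 2878 CPM in untreated tumours. Apart from untreated 2 the libraries overlapped, and the log2 fold change of -0.35 ± 0.29 was -0.03 ± 0.14 without it. Per kilobase of the longest transcript, *Hspa8* had the highest mean level of all chaperone genes, 992 CPM per kilobase over the 6 libraries, followed by *Hsp90ab1* with 831 and *Hsp90aa1* with 308. *Hspa4l*, a paralogue of *Hspa4*, was likewise picked with its values in view. It had 85.3, 85.3 and 97.8 CPM in treated tumours, against 64.6, 83.0 and 62.9 CPM in untreated tumours. All treated libraries were above all untreated ones, and its log2 fold change came to 0.35 ± 0.20 over all 6 and 0.48 ± 0.12 when untreated 2 was left out (unadjusted p = 0.00335, edgeR). Of the 11 tested HSP70 genes in all compartments, 7 were higher and 4 lower, with a median of 0.12, and without untreated 2 6 were higher and 5 lower, with a median of 0.19. That median was 0.46 without untreated 1 and 0.046 without untreated 3, and -0.0068 after the GC and length correction.

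The heat-inducible genes that the choice of symbols leaves out were unequal among the treated libraries. The 8 summed to 1078, 321 and 423 CPM in treated 1, 2 and 3, and to 315, 294 and 265 CPM in untreated tumours. With all libraries 6 of the 8 were higher and 2 lower, and without untreated 2 all 8 were higher. The inducible HSP70 gene *Hspa1b* had 316, 23.5 and 63.5 CPM in treated tumours, and 18.9, 5.80 and 15.6 CPM in untreated tumours. Its log2 fold change was the highest of the 8. Treated 1 was the highest library for this gene by a wide margin. Of the treated libraries, treated 3 was the highest for *Hspd1* and *Hspa9*, and treated 1 for *Hspe1* and *Hspa4*. The 111 chaperone genes summed to 20208, 17439 and 19579 CPM in treated 1, 2 and 3.

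The log2 fold changes of the cytosolic HSP90 genes, which hold kinases and steroid receptors in a form ready for activation, depended on untreated 2. This held for the size in *Hsp90ab1* and for the direction in *Hsp90aa1*. *Hsp90ab1*, the constitutive one, had 2608, 2315 and 2774 CPM in treated tumours, against 1964, 673 and 2233 CPM in untreated tumours. Its treated libraries all lay above its untreated ones. *Hsp90aa1*, the more stress-responsive one, had 1122, 824 and 1024 CPM in treated tumours, and 764, 1578 and 759 CPM in untreated tumours. In untreated 2 the first gene was at its lowest and the second at its highest, so the ratio of *Hsp90ab1* to *Hsp90aa1* in CPM was 0.426 there, against 2.32 to 2.81 in treated tumours and 2.57 and 2.94 in untreated 1 and 3. The log2 fold change of *Hsp90ab1* was 0.66 ± 0.43 with all libraries and 0.28 ± 0.14 without untreated 2. That of *Hsp90aa1* was -0.06 ± 0.34 with all libraries and 0.37 ± 0.15 without untreated 2 (unadjusted p = 0.0403, edgeR).

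Of the 6 tested co-chaperones, 4 were higher and 2 lower, with a median of 0.22 (0.26 without untreated 2). *Stip1* (HOP), which links HSP70 to HSP90, had 206, 171 and 240 CPM in treated tumours, against 140, 104 and 149 CPM in untreated tumours. The groups did not overlap, and the log2 fold change was 0.65 ± 0.23 (unadjusted p = 0.0263 and adjusted p = 0.592, edgeR) and 0.51 ± 0.15 without untreated 2. *Cdc37*, which brings kinases to HSP90, averaged 209 ± 28.6 CPM in treated tumours and 168 ± 9.56 CPM in untreated tumours (SD, n = 3 each), and its log2 fold change of 0.31 was 0.28 without untreated 2 and -0.17 after the GC and length correction. That correction took 7851 bases as the length of *Cdc37*, its longest annotated transcript, coding or not. Whether that length caused the change of sign was not tested. *Cdc37l1*, its relative, had 91.7, 93.7 and 72.9 CPM in treated tumours, against 128, 115 and 103 CPM in untreated tumours. It was 1 of the 6 chaperone genes whose treated libraries all lay below the untreated ones, with a log2 fold change of -0.42 ± 0.20 (unadjusted p = 0.0731, edgeR) and -0.43 ± 0.15 without untreated 2. Of the 5 BAG genes, 4 were higher and 1 lower, with a median of 0.31 (0.19 without untreated 2). *Bag2*, an exchange factor for HSP70, had 32.4, 23.9 and 30.7 CPM in treated tumours, against 15.6, 13.8 and 22.9 CPM in untreated tumours. Its lowest treated library was just above the highest untreated one, and the log2 fold change was 0.73 ± 0.26 (unadjusted p = 0.0283, edgeR) and 0.57 ± 0.21 without untreated 2. *Bag6*, which guards tail-anchored proteins on their way to membranes, had 294, 249 and 276 CPM in treated tumours, and 245, 61.6 and 260 CPM in untreated tumours. Its log2 fold change of 0.53 ± 0.49 was 0.10 ± 0.11 without untreated 2. *Bag4* was at -0.15 ± 0.33 with all libraries and 0.26 ± 0.15 without untreated 2.

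A list of 13 other cytosolic genes, for cofactors of HSP90 and HSP70, also held the prefoldin subunit gene *Vbp1*. Of the 13, 9 were higher and 4 lower, with a median of 0.19, and 11 were higher without untreated 2, with a median of 0.20. In edgeR's test, 3 were higher at an unadjusted p under 0.05 without untreated 2, against 9.55% of all tested genes. With all libraries 1 was higher, against 3.32% of all tested genes. This was *Nudc*, a protein of nuclear migration with chaperone activity. It had 158, 113 and 198 CPM in treated tumours, against 95.1, 48.6 and 107 CPM in untreated tumours, with a log2 fold change of 0.90 ± 0.35 (unadjusted p = 0.0374) and 0.62 ± 0.21 without untreated 2.

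TRiC, which folds actin and tubulin, is built from 8 kinds of subunit, and all 8 of their genes were tested (*Cct6b* and *Cct8l1*, which the pattern also holds, were not). With all libraries 6 were higher and 2 lower, with a median log2 fold change of 0.26. Without untreated 2 all 8 were higher, at log2 fold changes between 0.23 and 0.47 with a median of 0.41. At an unadjusted p under 0.05 by edgeR 7 were higher, all but *Cct5*, against 9.55% of all tested genes. In each of the 8 genes the treated libraries all lay above untreated 1 and 3, as in 19.7% of all tested genes. In all 8 treated 2 was the lowest treated library, a place it took in 36.4% of all tested genes. *Cct6a* had 344, 262 and 340 CPM in treated tumours, against 211, 209 and 242 CPM in untreated tumours. It was the subunit whose groups stayed apart with all libraries, with a log2 fold change of 0.51 ± 0.20 (unadjusted p = 0.0403 and adjusted p = 0.592, edgeR) and 0.47 ± 0.15 without untreated 2. *Tcp1*, the founding subunit, had 337, 260 and 299 CPM in treated tumours, and 225, 386 and 243 CPM in untreated tumours. *Cct5* had 465, 363 and 375 CPM in treated tumours, and 342, 796 and 340 CPM in untreated tumours. Both were highest in untreated 2, *Cct5* by the wider margin. The summed level of the class was 2925, 2320 and 2750 CPM in treated tumours, and 1919, 3186 and 2141 CPM in untreated tumours. Per kilobase of the longest transcript, the most abundant subunit gene, *Cct5*, stood 2.31 to 2.58 times above the least abundant in treated tumours. In untreated 1, 2 and 3 it stood 3.04, 5.23 and 2.59 times above. The least abundant were *Tcp1* or *Cct7*, whose transcripts taken here are the longest of the 8 (3419 and 3884 bases), while that of *Cct5* is the shortest (1853 bases). Without division by length, *Cct8* had the lowest mean CPM. The part of transcript length in these ratios was not tested.

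**Figure D3:**
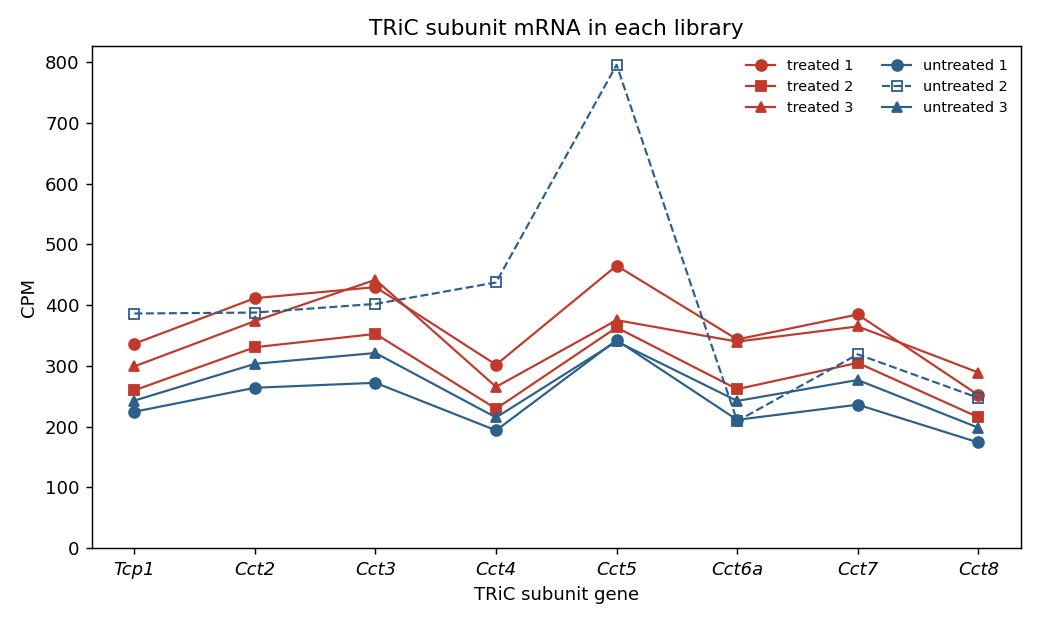
CPM of the 8 tested TRiC subunit genes in each library; red lines are treated tumours, blue lines untreated tumours, and the dashed line with open squares is untreated 2. The 3 treated lines lie above untreated 1 and 3 at every subunit, while untreated 2 crosses them, at 796 CPM for *Cct5* and 209 CPM for *Cct6a*.

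Prefoldin hands newly made actin and tubulin to TRiC. Of its 5 tested genes with a Pfdn symbol, 2 were higher and 3 lower with all libraries (median -0.30), and 4 were higher and 1 lower without untreated 2 (median 0.43). Its subunit gene *Vbp1*, outside the choice of symbols, was at -0.47 ± 0.47 with all libraries and 0.30 ± 0.13 without untreated 2. *Pfdn6* had 38.1, 25.0 and 33.8 CPM in treated tumours, against 20.1, 17.9 and 20.4 CPM in untreated tumours. The groups did not overlap, and the log2 fold change was 0.73 ± 0.23 (unadjusted p = 0.0140 and adjusted p = 0.592, edgeR) and 0.66 ± 0.19 without untreated 2. *Pfdn5* had 71.7, 72.9 and 72.6 CPM in treated tumours, and 74.3, 129 and 76.5 CPM in untreated tumours. The treated libraries lay just below untreated 1 and 3, and the log2 fold change of -0.36 ± 0.26 was -0.07 ± 0.10 without untreated 2.

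Of the 23 tested ER genes, 9 were higher and 14 lower. Untreated 2 was above every other library in 10 of them and below every other in 7. Among all tested genes it took those places in 37.3% and 39.6%. *Hspa5* (BiP), the ER HSP70, had 1010, 927 and 932 CPM in treated tumours, and 880, 1921 and 792 CPM in untreated tumours. *Hsp90b1* (GRP94), the ER HSP90, had 941, 882 and 912 CPM in treated tumours, and 785, 1398 and 750 CPM in untreated tumours. In both, the treated libraries were above untreated 1 and 3 and below untreated 2. The log2 fold change of *Hspa5* was -0.32 ± 0.36 with all libraries and 0.19 ± 0.12 without untreated 2, and that of *Hsp90b1* was -0.10 ± 0.29 and 0.24 ± 0.11. Neither had an unadjusted p under 0.05 in either test by edgeR.

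The ER stress response element, which the ATF6 branch of the unfolded protein response is known to use, was sought as CCAAT and CCACG with 9 free bases between them, on both strands of the same 300 bases. It was found in 0.137% of the 27025 symbols, and in 4 of the 21 ER chaperone genes with a promoter, but in 0 of 48 cytosolic and 0 of 8 mitochondrial ones. Those 4 promoters are shown, from RefSeq's mm10 sequence on the gene's own strand and with the element in capitals, because these are the ER genes that hold it. They are chr2:34772005-34772064 (plus strand, *Hspa5*), chr10:86705617-86705676 and chr10:86705512-86705571 (minus strand, *Hsp90b1*), chr12:17266471-17266530 (plus strand, *Pdia6*) and chr14:118937807-118937866 (plus strand, *Dnajc3*).
Hspa5: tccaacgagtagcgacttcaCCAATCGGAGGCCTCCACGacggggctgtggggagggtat
Hsp90b1, farther site: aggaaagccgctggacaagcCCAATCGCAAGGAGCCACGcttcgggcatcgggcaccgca
Hsp90b1, nearer site: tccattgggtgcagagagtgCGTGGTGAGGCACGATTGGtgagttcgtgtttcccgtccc
Pdia6: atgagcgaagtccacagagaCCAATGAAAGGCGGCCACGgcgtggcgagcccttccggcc
Dnajc3: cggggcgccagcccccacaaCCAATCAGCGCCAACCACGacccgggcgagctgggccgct
The nearer *Hsp90b1* site is on the strand opposite to the gene. *Pdia6*, a disulfide isomerase, had 205, 217 and 235 CPM in treated tumours, and 207, 274 and 194 CPM in untreated tumours. *Dnajc3*, a J-domain protein of the ER lumen also called p58IPK, had 133, 155 and 128 CPM in treated tumours, and 147, 324 and 128 CPM in untreated tumours. All 4 genes were highest in untreated 2, as were 37.3% of all tested genes. Without untreated 2 the log2 fold changes of the 4 were 0.19 (*Hspa5*), 0.24 (*Hsp90b1*), 0.12 (*Pdia6*) and 0.01 (*Dnajc3*).

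*Dnajb9* (ERdj4), which helps remove misfolded ER proteins, had 24.3, 21.6 and 22.9 CPM in treated tumours, against 33.7, 69.4 and 24.7 CPM in untreated tumours. All treated libraries were below all untreated ones, and the log2 fold change came to -0.89 ± 0.38 (unadjusted p = 0.0534, edgeR) and -0.35 ± 0.17 without untreated 2. *Hspa13*, a short HSP70 of the ER, had 68.3, 74.1 and 66.0 CPM in treated tumours, and 74.3, 206 and 69.8 CPM in untreated tumours, so that its log2 fold change of -0.74 was -0.06 without untreated 2. Of the 10 ER J-domain genes, 4 were higher and 6 lower. Of the 4 tested disulfide isomerases, 2 were higher and 2 lower, and all 4 were higher without untreated 2 (medians 0.07 and 0.16). *Pdia3*, which folds glycoproteins with calnexin and calreticulin, had the highest mean of its class, 546 ± 3.64 CPM in treated tumours and 480 ± 73.4 CPM in untreated tumours (SD, n = 3 each). *Pdia5* was at 0.38 ± 0.22, with all treated libraries above all untreated ones, and *Pdia4* at -0.09 ± 0.27, while without untreated 2 both were at 0.21. Of 16 other ER folding genes, 10 were higher and 6 lower, with a median of 0.07, and 11 were higher without untreated 2, with a median of 0.11. In edgeR's test 1 of them was higher at an unadjusted p under 0.05 both with and without untreated 2. The shares of all tested genes were 3.32% and 9.55%. The 1 gene was *Hyou1*, the large HSP70 that acts as exchange factor for *Hspa5*. It had 207, 200 and 223 CPM in treated tumours, against 157, 111 and 156 CPM in untreated tumours. The groups did not overlap, and the log2 fold change was 0.57 ± 0.21 (unadjusted p = 0.0311, adjusted p = 0.592) and 0.42 ± 0.10 without untreated 2.

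Of the 14 tested FKBP isomerases, 6 were higher and 8 lower, with a median of -0.08 (-0.05 without untreated 2). *Fkbp1a* (FKBP12), the cytosolic target of FK506 and rapamycin, had 368, 287 and 341 CPM in treated tumours, against 234, 216 and 268 CPM in untreated tumours. All treated libraries were above the untreated ones, and the log2 fold change was 0.47 ± 0.20 (unadjusted p = 0.0523, edgeR) and 0.40 ± 0.14 without untreated 2. *Fkbp14*, an ER isomerase for collagen, had 11.4, 13.5 and 9.20 CPM in treated tumours, against 15.4, 35.0 and 13.9 CPM in untreated tumours. All treated libraries were below all untreated ones, and the log2 fold change was -0.90 ± 0.40 (unadjusted p = 0.0593, edgeR) and -0.37 ± 0.23 without untreated 2.

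The J-domain class was the largest, with 35 of 43 genes tested, 19 of them higher and 16 lower, and a median of 0.08 with and without untreated 2, but 0.0042 without treated 1 and 0.021 without untreated 1. *Dnaja1*, an HSP70 partner of the cytosol, had 257, 233 and 210 CPM in treated tumours, and 228, 494 and 223 CPM in untreated tumours, with untreated 2 alone away from the rest. Its log2 fold change was -0.43 ± 0.35, and 0.04 ± 0.12 without untreated 2. The small HSP class was set by the Hspb symbol alone. Of its 4 tested genes, 1 was higher and 3 were lower, both with and without untreated 2, but the higher gene changed. With all libraries it was *Hspb7* (0.31, and -0.10 without untreated 2). Without untreated 2 it was *Hspb11* (0.15, and -0.22 with all libraries). *Hspb2*, a small HSP of muscle, had 3.04, 2.72 and 2.24 CPM in treated tumours, against 4.39, 4.24 and 6.50 CPM in untreated tumours. The groups did not overlap, and the log2 fold change was -0.93 ± 0.35 (unadjusted p = 0.0307 and adjusted p = 0.592, edgeR) and -1.05 ± 0.36 without untreated 2, but it overlaps *Cryab* on the other strand, and the setting for strand in the counting is not given. *Hspb7*, a small HSP of heart and skeletal muscle, had 2.86, 2.45 and 10.4 CPM in treated tumours, and 6.66, 1.12 and 4.78 CPM in untreated tumours. Treated 3, its highest library, was also the highest for the skeletal muscle markers, whose part in this value was not tested. *Hspb6* was at 10.9 ± 1.52 CPM in treated tumours and 12.1 ± 2.30 CPM in untreated tumours (SD, n = 3 each).

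The level of a chaperone gene in untreated 2 went with the GC content of its transcript. Among the 33 tested chaperone genes of lowest GC content (38.3% to 45.9%), 29 were higher in untreated 2 than the mean of untreated 1 and 3, with a median difference of 0.92 on the scale of log2(CPM + 0.5). In the 32 genes of highest GC content (51.4% to 63.0%), 8 were higher, and the median difference was -0.25. Of the 33 genes of lowest GC content, 13 were higher in treated tumours with all libraries and 26 without untreated 2, while of the 32 of highest GC content 20 and 16 were. The part of GC content in the fold changes of single genes was not tested beyond the correction of all libraries, which gave a median of 0.06 over the 97 genes, against -0.02 over all tested genes.

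**Figure D4:**
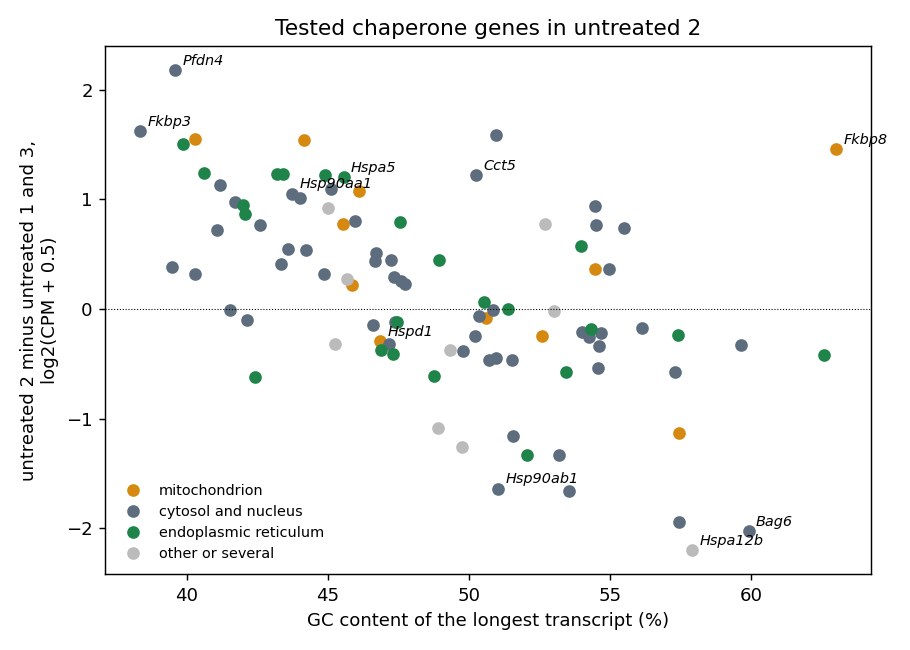
Difference between untreated 2 and the mean of untreated 1 and 3 in log2(CPM + 0.5), against the GC content of the longest transcript, for the 97 tested chaperone genes coloured by compartment. Most genes under 45% GC lie above 0 and most over 51% lie below, with *Fkbp8* an exception at 63.0%.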

How the data were processed

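Per the labels, total RNA was extracted with Trizol and made into strand-keeping libraries. The authors deposited 1 table of whole-number counts for each sample, by gene symbol, and TopHat and mm10 are named per the submitters' processing notes. Which program made the counts, with which strand setting and annotation, is not given in the sources used here; 35 of the 111 genes overlap a protein-coding gene on the opposite strand. Groups were taken from the treatment labels.

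Genes were filtered with filterByExpr (smallest count 10), scaled with TMM and compared with edgeR 4.0.16 (R 4.3.3), by the 2-sided quasi-likelihood test with Benjamini-Hochberg adjustment over all tested genes. CPM use the TMM library sizes, means and SDs are over 3 libraries, and the SE is the log2 fold change divided by the root of F. At these depths a gene of few counts has a wide counting error. An exact permutation test of 3 against 3 cannot go below 0.1 and was not used. Every pair of libraries differed by more than sampling noise (chi-square per gene of 5.64 or more). The steps were tested on simulated data. Gene coordinates, and the length and GC content of each gene's longest transcript, coding or not, are from GENCODE M21 on mm10. Promoters (300 bases) are from RefSeq's mm10 table.

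The genes and lists were chosen with earlier results of these data known. Named are, in each of 11 classes, the tested gene with the smallest p in each direction and the one with the highest mean CPM, plus 9 fixed genes (*Hspd1*, *Hspe1*, *Hspa9*, *Hspa5*, *Hsp90b1*, *Hspa8*, *Hsp90aa1*, *Hsp90ab1*, *Tcp1*). *Pdia6*, *Dnajc3* and *Dnajb6* are named for a promoter match and *Vbp1* as a prefoldin subunit. *Fkbp8*, *Hspa4l*, *Hspb11*, *Nudc*, *Hyou1* and *Hspa1b* were picked with their values in view. Alternatives were DESeq2 (1.42.0) and its size factors, the upper quartile, limma-voom (3.58.1), no filter, a mean of at least 5 CPM, leaving out each library, the replicate number as a block, and a loess correction for GC content and length. DESeq2 without untreated 2 was added after seeing the data.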

Additional observations from a re-analysis of the deposited data

How the results depend on the processing

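With edgeR no gene passed at an adjusted p of 0.05 with all libraries, and leaving out 1 library at a time gave 0 to 4 genes lower (4 without untreated 3) and 0 higher; DESeq2 gave 18 higher and 39 lower, and without untreated 2 115 higher and 158 lower, of which 3 higher were chaperone genes. With all libraries 3.32% of all tested genes were higher and 4.85% lower at an unadjusted p under 0.05 in edgeR. Without untreated 2 these shares were 9.55% and 8.85%. They are not given here for the other settings, the replicate block included. Shifts in the chaperone counts there cannot be set against all genes. The 8 chaperone genes higher at an unadjusted p under 0.05 became 1 to 24 when 1 library was left out (24 without untreated 2), 14 with the GC and length correction and 26 with DESeq2 without untreated 2. The 1 lower became 0 to 5 when 1 library was left out, 2 with the upper quartile, 3 with DESeq2, no filter, the GC and length correction or DESeq2 without untreated 2, and 0 at a mean of at least 5 CPM. Leaving out 1 library kept the cytosolic median between 0.078 and 0.26 and the ER median between -0.10 and 0.0014, and DESeq2 without untreated 2 gave 0.26 and 0.0010. Leaving out 1 library kept the mitochondrial median between 0.11 and 0.32, and the GC and length correction gave 0.065. Class medians ranged, when 1 library was left out, over 0.046 to 0.46 for HSP70 (0.32 with limma-voom, -0.0068 after the correction), -0.25 to 0.28 for HSP90, 0.0042 to 0.095 for J-domain genes, 0.13 to 0.41 for TRiC, -0.51 to 0.43 for prefoldin (0.18 after the correction), 0.43 to 0.71 for the mitochondrial chaperonin, -0.12 to -0.046 for FKBP (-0.20 after the correction), 0.035 to 0.16 for PDI (0.18 with no filter), 0.19 to 0.40 for BAG, 0.15 to 0.27 for co-chaperones and -0.47 to -0.055 for small HSP. Correlations of deviations from the group means were -0.18, -0.11 and 0.11 for libraries of equal replicate number, and -0.22 to 0.24 for unequal numbers. With so few libraries and untreated 2 apart, they cannot decide whether the numbers pair the libraries. With the replicate block 5 chaperone genes were higher and 1 lower at an unadjusted p under 0.05 in edgeR. With the GC and length correction as well these were 11 and 1, and no gene passed after adjustment. Directions turned as follows, with the range when 1 library was left out, then DESeq2 without untreated 2: *Hsp90b1* -0.26 to 0.24, 0.24; *Dnaja1* -0.63 to 0.043, 0.043; *Cct5* -0.51 to 0.23, 0.23; *Pdia4* -0.26 to 0.21, 0.21; *Bag4* -0.35 to 0.26, 0.26; *Hspb7* -0.68 to 0.77, -0.12; *Hspa5* -0.55 to 0.19, 0.19; *Hsp90aa1* -0.25 to 0.37, 0.37. *Tcp1* ranged from -0.086 to 0.35. The GC and length correction gave 0.17 for *Hsp90b1*, -0.17 for *Cdc37* and 0.15 for *Hsp90aa1*, and together with the replicate block 0.17, -0.053 and 0.16, with 0.0061 for *Pdia4* and 0.023 for *Bag4*. *Hsp90aa1* was at 0.022 with limma-voom and 0.025 with the replicate block. Beyond what leaving out untreated 2 shows, the cause was not tested. Depth limits the genes under 5 CPM most, such as *Hspb2*.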
